A study of Homo sapiens with 18 samples.

Results

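The genes described here were 10 growth-arrest and metabolic-stress genes: the 3 sestrins (SESN1, SESN2 and SESN3), BTG1, BTG2 and BTG3 of the BTG/TOB family, GADD45A, GADD45B and GADD45G, and DDIT4. They were chosen by symbol from 56269 genes in the deposited table of normalized counts, and all 10 reached the mean of 10 normalized counts over the 18 libraries that was required for testing, as did 13686 genes in all. GADD45G passed that minimum only through the tBHP-exposed libraries. The cells were IMR90, a line of primary human lung fibroblasts, cultured in EMEM with 15% FBS, so that all values rest on 1 line. All cultures first received, for 6 h, either PBS or 20 µg/ml of hyaluronan (HA) purified from naked mole-rat skin fibroblasts. This HA was either kept long (cNSF-HA, heated with inactivated hyaluronidase) or partly fragmented with active hyaluronidase (fNSF-HA). Cells of 3 groups (PBS, cNSF and fNSF in the labels) were collected right after the pre-incubation. Those of the other 3 groups were then freed of HA, exposed for 1 h to 200 µM tert-butyl hydroperoxide (tBHP, an organic oxidant), and collected 6 h after the exposure began. Each group had 3 biological replicates. A comparison of cells with and without tBHP therefore also compares different times in culture, and oxidant and time cannot be told apart.

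Cells that meet an oxidant or DNA damage slow down growth and division through several small stress-induced proteins. Sestrins bind the GATOR complex that relays amino acid levels to mTORC1, the kinase complex that drives growth, and DDIT4 (also called REDD1) restrains mTORC1 through the TSC complex. BTG proteins hold back proliferation and recruit the CCR4-NOT deadenylase, which shortens the poly(A) tails of mRNAs, whereas GADD45 proteins bind cyclin B1-CDK1, PCNA, CDKN1A and stress-signalling kinases. SESN1, SESN2, BTG2 and GADD45A are well-known targets of p53, and SESN2 and DDIT4 are also known targets of ATF4, the factor of the integrated stress response.

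The 10 genes lie apart on 8 chromosomes (GENCODE release 29, GRCh38). SESN2 was annotated at chr1:28259527-28282491 (plus strand), DDIT4 at chr10:72273920-72276036 (plus strand) and BTG2 at chr1:203305491-203309602 (plus strand), the 3 genes that later showed the largest changes. SESN1, at chr6:108986437-109094819 (minus strand), has 3 start regions in RefSeq. The 250 bases upstream of 4 start sites are shown to set these genes, which rose together, side by side. The sequences are from a table of RefSeq start regions (GRCh38.p14), in which 9 of the 10 genes were matched, with 11 start regions. GADD45A was not matched there and was not searched. Each is written 5′ to 3′ on the strand of its gene, and capitals mark matches to a CCAAT box (CCAAT, or ATTGG on the other strand) or to a p53 half-site.
SESN2 (chr1:28259268-28259517, plus strand): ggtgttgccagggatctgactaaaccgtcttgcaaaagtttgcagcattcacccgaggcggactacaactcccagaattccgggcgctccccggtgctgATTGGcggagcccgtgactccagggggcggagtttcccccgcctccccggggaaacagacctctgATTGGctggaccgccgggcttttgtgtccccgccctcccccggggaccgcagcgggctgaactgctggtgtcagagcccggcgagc
DDIT4 (chr10:72273674-72273923, plus strand): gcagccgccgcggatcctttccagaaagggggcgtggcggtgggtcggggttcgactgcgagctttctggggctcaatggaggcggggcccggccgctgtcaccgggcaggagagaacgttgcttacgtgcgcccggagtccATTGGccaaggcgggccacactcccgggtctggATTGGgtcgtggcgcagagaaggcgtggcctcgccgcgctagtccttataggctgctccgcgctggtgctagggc
BTG2 (chr1:203305269-203305518, plus strand): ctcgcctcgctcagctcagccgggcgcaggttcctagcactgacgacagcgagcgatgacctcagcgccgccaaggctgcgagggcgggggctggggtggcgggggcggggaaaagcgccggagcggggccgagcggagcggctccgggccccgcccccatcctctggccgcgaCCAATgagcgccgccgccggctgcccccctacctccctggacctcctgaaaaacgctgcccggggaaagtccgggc
SESN1, most downstream start (chr6:109008989-109009238, minus strand): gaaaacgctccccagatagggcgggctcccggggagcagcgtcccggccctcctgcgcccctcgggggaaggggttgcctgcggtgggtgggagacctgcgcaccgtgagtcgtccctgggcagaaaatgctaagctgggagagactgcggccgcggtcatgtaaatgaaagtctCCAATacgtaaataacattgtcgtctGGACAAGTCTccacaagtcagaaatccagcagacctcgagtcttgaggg

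Each start region was searched on both strands over 300 bases, from 250 before to 50 after the start site. CCAAT was present in 8 of the 11 start regions, belonging to 7 genes (SESN1, SESN2, BTG1, BTG2, GADD45B, GADD45G and DDIT4), and in 34.6% of all 35116 promoters of the table. This motif was added after the sequences had been seen. The p53 half-site was found in the downstream start region of SESN1, 49 bases before the start, and in 6.6% of all promoters. The amino acid response element (TGATGNAAN) was matched in GADD45G, against 3.6% of all promoters. The E-box CACGTG was matched in GADD45B and GADD45G, against 7.3% of all promoters, and the antioxidant response element (TGACNNNGC or TGAGNNNGC) in GADD45G and SESN1, against 29.1%. Neither the CRE (TGACGTCA, 1.8% of all promoters) nor the AP-1 site (TGACTCA or TGAGTCA, 4.9%) was in any of the 11 windows. No matches of different motifs overlapped, and all are descriptions of letters in short windows.

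The libraries held 20261103 to 26287660 reads assigned to genes. All 10 fibroblast markers examined were present in every library, from LUM (223 to 573 normalized counts), the lowest, to FN1 (394014 to 671996). Of 5 endothelial markers, CDH5 had no read in any library and PECAM1 and KDR at most 2.80 normalized counts, but VWF had 3.73 to 25.0 and TEK 694 to 1453. Of 6 epithelial markers, KRT5, SFTPC and SCGB1A1 had no read and EPCAM and CDH1 at most 5.47, but KRT19 had 76.6 to 196. The 5 leukocyte markers summed to at most 12.5. The spread between replicates was wider after tBHP, with a median within-group SD of the log2 value of 0.172 over all genes and 0.182 over the 10 genes, against 0.0674 and 0.0781 without tBHP. Replicate 2 of the fNSF-HA cells after tBHP stood apart in a way that followed transcript GC content. The 1253 genes richest in GC deviated there by a median of -0.785 on the log2 scale from the mean of the 9 tBHP libraries, and the 1253 poorest by 0.481. Replicate 3 of the exposed cNSF-HA cells (0.325 and -0.147) and replicate 1 of the exposed PBS cells (0.313 and -0.255) deviated less, in the other direction. The differences between HA groups after tBHP are therefore also given without replicate 2 of the exposed fNSF-HA cells.

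In cells that had met only PBS, the 10 genes differed widely in level. Per kb of exon, GADD45B (812 ± 25.9 normalized counts per kb, SD, n = 3) and GADD45A (793 ± 15.5) were the most abundant, and their replicates overlapped. BTG3 (447 ± 22.0), BTG1 (247 ± 18.7), DDIT4 (158 ± 12.7) and SESN2 (118 ± 8.23) followed with ranges that did not overlap. BTG2 (36.1 ± 5.29) and SESN1 (35.7 ± 3.99) overlapped each other. SESN3 (8.22 ± 1.40) and GADD45G (5.60 ± 0.998) were the lowest of the 10, and GADD45G rested on 7 to 9 reads per library.

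Before tBHP, no difference of these genes between HA and PBS was called. No member passed an adjusted p of 0.05 in limma when cNSF-HA cells were compared with PBS cells, fNSF-HA cells with PBS cells, or cNSF-HA with fNSF-HA cells, and 0% of the 13686 genes did in each comparison (126, 109 and 206 genes had an unadjusted p under 0.05, none of them a member). By edgeR, 0 genes passed in the same 3 comparisons, and by DESeq2 0, 3 and 0 genes, again without a member. The log2 differences of the members ran from -0.10 to 0.10 for cNSF-HA against PBS, from -0.12 to 0.17 for fNSF-HA against PBS and from -0.15 to 0.22 for cNSF-HA against fNSF-HA. DDIT4 gave the largest of these, 0.22 (95% interval -0.04 to 0.48) between cNSF-HA and fNSF-HA cells, whose replicates did not overlap (321 to 366 against 293 to 304 normalized counts). For BTG3, the cNSF-HA replicates (937 to 979) lay below those of PBS (1001 to 1090) and of fNSF-HA cells (993 to 1017). The share of all genes without overlap was not counted.

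**Figure D1:**
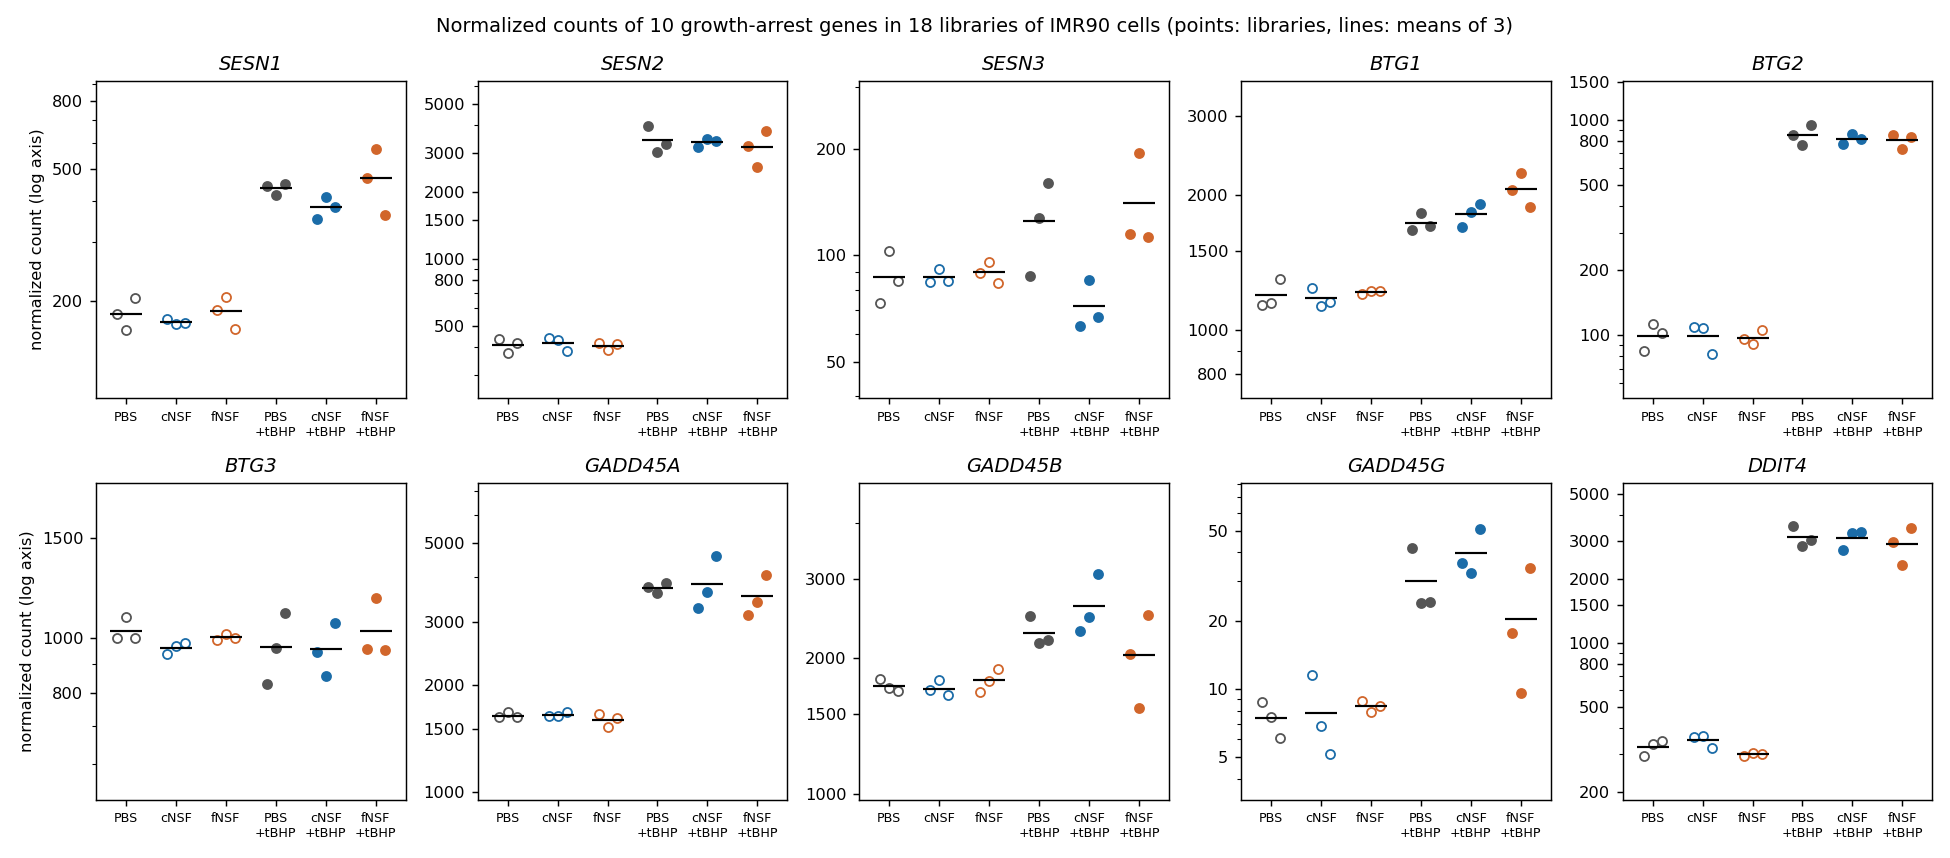
Normalized counts of the 10 genes (log vertical axes, 1 panel per gene) in the 18 libraries, by pre-incubation and tBHP; each point is a library and each line the mean of 3. SESN2, BTG2 and DDIT4 stand about 1 decade higher in all 9 tBHP-exposed libraries than in the 9 unexposed ones, whereas those of BTG3 overlap.

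tBHP was followed by higher transcript levels of most of these genes. In PBS cells, 8 of the 10 were higher and 0 lower at an adjusted p of 0.05, against 24.2% of all tested genes higher and 26.9% lower. The same count of 8 was reached with cNSF-HA (24% of all genes higher, 26.8% lower) and with fNSF-HA (19.2% higher, 22.7% lower). The median log2 change of the 10 genes was 1.22, 1.17 and 1.08 in PBS, cNSF-HA and fNSF-HA cells, and that of all tested genes 0.0043, -0.00053 and -0.034. GADD45G, which reached the minimum for testing only through its exposed libraries, was one of the 8 each time. Without it, 7 of 9 genes were higher in each pre-incubation, with medians of 1.19, 1.14 and 1.14. In PBS and cNSF-HA cells the exceptions were SESN3 and BTG3, and in fNSF-HA cells BTG3 and GADD45B. The 3 responses have separate controls, and in each the rise of SESN1, SESN2, BTG1, BTG2, GADD45A and DDIT4 passed the threshold under all 30 alternative settings. Some cell type markers moved with tBHP as well. In PBS cells 1 of the 10 fibroblast markers was higher (PDGFRB, 0.60) and 3 were lower (LUM, -1.33, COL3A1, -0.34, and DCN, -0.26), while their summed level was 1146390 to 1171400 normalized counts before and 1155380 to 1365270 after. In cNSF-HA cells the fibroblast markers were 1 higher and 4 lower, and in fNSF-HA cells 1 higher and 2 lower. The endothelial marker TEK was lower in all 3 pre-incubations (-0.40 with PBS, -0.68 with cNSF-HA and -0.53 with fNSF-HA). VWF, with means of 6.81 to 9.57 normalized counts before tBHP, was tested only because of its exposed libraries, and was called higher with PBS (1.32) and fNSF-HA (1.18) and not with cNSF-HA (0.72). The epithelial KRT19 was lower with fNSF-HA (-0.60, adjusted p = 0.0297) and did not pass with PBS (-0.46) or cNSF-HA (-0.49). Their part in the changes described here was not tested. Since RNA was taken from whole cultures, fewer cells of a kind and less RNA per cell cannot be told apart.

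SESN2, the sestrin known as a leucine sensor of mTORC1, had 433, 377 and 415 normalized counts in the 3 PBS replicates and 3952, 3024 and 3297 after tBHP. In cNSF-HA cells the counts went from 441, 428 and 386 to 3193, 3456 and 3410.3, and in fNSF-HA cells from 417, 388 and 413 to 3234, 2601 and 3769. Every exposed library lay above every unexposed one. The log2 change was 3.06 in PBS cells (standard error 0.115, adjusted p = 9.41e-13, limma), an 8.33-fold rise that ranked 38 of 13686 genes by size. With cNSF-HA it was 3.00, and with fNSF-HA 2.96. No difference between the responses passed the test: it was -0.06 (95% interval -0.40 to 0.28) for cNSF-HA minus PBS and -0.10 (-0.44 to 0.24) for fNSF-HA minus PBS.

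SESN1, the sestrin first found as a p53 target, rose less. Its counts of 182, 162 and 203 in PBS cells became 444, 417 and 449.7 after tBHP. Those in cNSF-HA cells became 352, 412 and 382, from 176, 170.1 and 172, and those in fNSF-HA cells 470.0, 575 and 363, from 187, 205 and 164. The exposed and unexposed libraries were again separate, and the widest group was the exposed fNSF-HA one, with its highest value in replicate 2. The log2 changes were 1.26 (standard error 0.135, adjusted p = 6.64e-07) in PBS, 1.14 (adjusted p = 2.28e-06) in cNSF-HA and 1.32 (adjusted p = 4.63e-07) in fNSF-HA cells. SESN1 shares 363 bases of exon with an annotated antisense transcript, and the library kit does not mark strand, so reads of the pair cannot be told apart.

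SESN3, a sestrin known as a FOXO target, passed the threshold in fNSF-HA cells only, and none of the 3 differences between its responses did. PBS replicates held 73.4, 103 and 84.7 normalized counts before and 87.4, 127 and 161 after tBHP, and the groups overlapped. In cNSF-HA cells, 84.0, 91.9 and 84.8 became 63.2, 85.2 and 67.1, and in fNSF-HA cells 89.3, 95.6 and 83.9 became 115, 195 and 113. Only the fNSF-HA groups did not overlap. The log2 change was 0.49 in PBS cells (95% interval 0.03 to 0.95, adjusted p = 0.0684), -0.28 in cNSF-HA cells (-0.74 to 0.18, adjusted p = 0.295) and 0.60 in fNSF-HA cells (0.14 to 1.06, adjusted p = 0.0340). Its transcript has the lowest GC content of the 10 (37.1%), and it shares 93 bases of exon with an annotated antisense transcript, whose reads cannot be told apart from its own. Without replicate 2 of the exposed fNSF-HA cells the change there was 0.34 (adjusted p = 0.165). In PBS cells it was 0.73 without replicate 1 of the exposed cells (adjusted p = 0.0114), 0.29 without their replicate 3 (adjusted p = 0.307) and 0.98 once each library's trend with transcript GC and length was removed (adjusted p = 2.72e-05). Removing that trend turned the cNSF-HA change to 0.28 (adjusted p = 0.154) and made the fNSF-HA change 0.93 (adjusted p = 5.63e-05). By edgeR the PBS change was 0.59 (adjusted p = 0.0292), and it passed under 8 of the 30 alternatives, one of them the fit without replicate 2 of the exposed fNSF-HA cells, where the estimate was the same and the standard error smaller (adjusted p = 0.0251).

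DDIT4, the mTORC1 inhibitor, showed the largest log2 change of the 10 genes in each pre-incubation. PBS replicates went from 295, 336 and 344 to 3536, 2848 and 3049 normalized counts. In cNSF-HA cells the counts were 362, 366 and 320.5 before and 2731, 3296 and 3335 after tBHP, and in fNSF-HA cells 293, 304 and 300.007 and 2971, 2326 and 3455. The 9 exposed libraries lay far above the 9 unexposed ones. In PBS cells the log2 values rose by 3.27 (standard error 0.122, adjusted p = 9.41e-13), or 9.62-fold, and rank 29 of the 13686 genes. The changes in cNSF-HA (3.15) and fNSF-HA cells (3.26) differed from it by -0.11 (95% interval -0.48 to 0.25) and -0.0044 (-0.37 to 0.36). DDIT4 shares 847 bases of exon with the antisense transcript DDIT4-AS1, whose reads cannot be told apart from its own.

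Among the BTG genes, BTG2 (an immediate early antiproliferative gene) rose steeply, BTG1 modestly, and BTG3 did not pass the threshold. BTG2 counts were 84.0, 113 and 102 in PBS cells and 848, 763 and 949 after tBHP. They were 109, 108 and 81.7 and 771, 858 and 820.3 in cNSF-HA cells, and 96.1, 90.7 and 105 and 851, 731 and 837 in fNSF-HA cells, so that no exposed library came near an unexposed one. The log2 change of BTG2 was 3.09 in PBS cells (standard error 0.129, adjusted p = 3.89e-12, 8.51-fold) and 3.04 with either HA. Its difference of responses was -0.05 for cNSF-HA minus PBS (95% interval -0.44 to 0.33) and -0.05 for fNSF-HA minus PBS (-0.44 to 0.33).

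BTG1, an antiproliferative gene that is high in resting cells, had 1137, 1152 and 1301 normalized counts in PBS cells and 1674, 1828 and 1704 after tBHP. With cNSF-HA the counts were 1245, 1132 and 1159 and then 1701, 1837 and 1914, and with fNSF-HA 1206, 1225 and 1227 and then 2056, 2242 and 1884. The groups did not overlap in any of the 3 responses. The log2 changes were 0.54 (standard error 0.0774, adjusted p = 1.74e-05), 0.62 (adjusted p = 3.81e-06) and 0.75 (adjusted p = 4.66e-07). With the GC and length trend removed they were 0.96, 1.03 and 1.00. BTG1 shares 325 bases of exon with an antisense transcript and 503 with the noncoding LINC01619, which had a mean of 8.91 normalized counts.

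BTG3, a related antiproliferative gene, showed no change that passed the test. PBS cells held 1002, 1089.9 and 1001 normalized counts and 829.6, 962 and 1106 after tBHP. The counts were 937, 968 and 979 and 947, 856 and 1062 in cNSF-HA cells, and 993, 1017 and 999 and 958, 1175 and 953 in fNSF-HA cells. Exposed replicates fell on both sides of the unexposed ones. The log2 changes of -0.10 (95% interval -0.32 to 0.11), -0.01 (-0.23 to 0.20) and 0.03 (-0.19 to 0.25) had intervals that reached no further than 0.32 in either direction. BTG3 overlaps BTG3-AS1 by 280 bases of exon.

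GADD45A, the p53-responsive member that binds PCNA and CDK1, went from 1621, 1679 and 1625 to 3752, 3625 and 3865 normalized counts in PBS cells. In cNSF-HA cells it went from 1632, 1632 and 1674 to 3281, 3637 and 4607, and in fNSF-HA cells from 1656, 1525 and 1616 to 3132, 3416 and 4069. All exposed libraries were well above the unexposed ones, with more scatter among HA replicates. The log2 changes were 1.19 (standard error 0.102, adjusted p = 3.99e-08), 1.21 (adjusted p = 3.75e-08) and 1.14 (adjusted p = 8.33e-08).

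GADD45B, known as an early NF-kB and TGF-beta target, was as abundant as GADD45A before tBHP but changed less. PBS cells had 1799, 1717 and 1693 normalized counts and 2479.6, 2165 and 2199 after tBHP. The counts were 1698, 1786 and 1656 and 2301, 2466 and 3073 with cNSF-HA, and 1686, 1781 and 1892 and 2044, 1551 and 2502 with fNSF-HA. The lowest of all 18 values was that of replicate 2 of the exposed fNSF-HA cells. The log2 changes were 0.39 (95% interval 0.12 to 0.66, adjusted p = 0.0174), 0.60 (0.33 to 0.87, adjusted p = 9.26e-04) and 0.16 (-0.11 to 0.43, adjusted p = 0.344). Without the GC and length trend the PBS change was 0.10 (adjusted p = 0.1002) and the cNSF-HA change 0.24 (adjusted p = 4.39e-04). Leaving out replicate 3 of the unexposed PBS cells gave an adjusted p of 0.0526, and leaving out replicate 1 of the exposed PBS cells one of 0.0746. In fNSF-HA cells the change was 0.34 (adjusted p = 0.00932) without replicate 2 of the exposed cells and -0.0031 without replicate 3.

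GADD45G, the member with the most GC-rich transcript (63.9%), rested on 5 to 12 reads per library before tBHP. Its counts were 8.69, 7.46 and 6.05 in PBS cells and 42.0, 23.95 and 24.1 after tBHP. In cNSF-HA cells they were 11.5, 6.84 and 5.17 and 35.8, 32.5 and 50.8, and in fNSF-HA cells 8.83, 7.88 and 8.39 and 17.5, 9.57 and 34.2. No exposed library fell below the unexposed ones of its own pre-incubation, but replicate 2 of the exposed fNSF-HA cells, at 9.57, was close to them. On the log2(value + 1) scale, which understates changes of such low genes, the differences were 1.85 (standard error 0.38, adjusted p = 5.91e-04), 2.24 (adjusted p = 1.01e-04) and 1.02 (adjusted p = 0.0378). The fNSF-HA value was 0.58 without replicate 3 of the exposed cells (adjusted p = 0.227), 1.45 without replicate 2 and 1.04 without replicate 1 (adjusted p = 0.0752). It also lost its call without any 1 of the unexposed fNSF-HA replicates (adjusted p = 0.0700, 0.0911 and 0.0798 without replicates 1, 2 and 3), as did that of SESN3 (0.0756, 0.0545 and 0.0982).

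**Figure D2:**
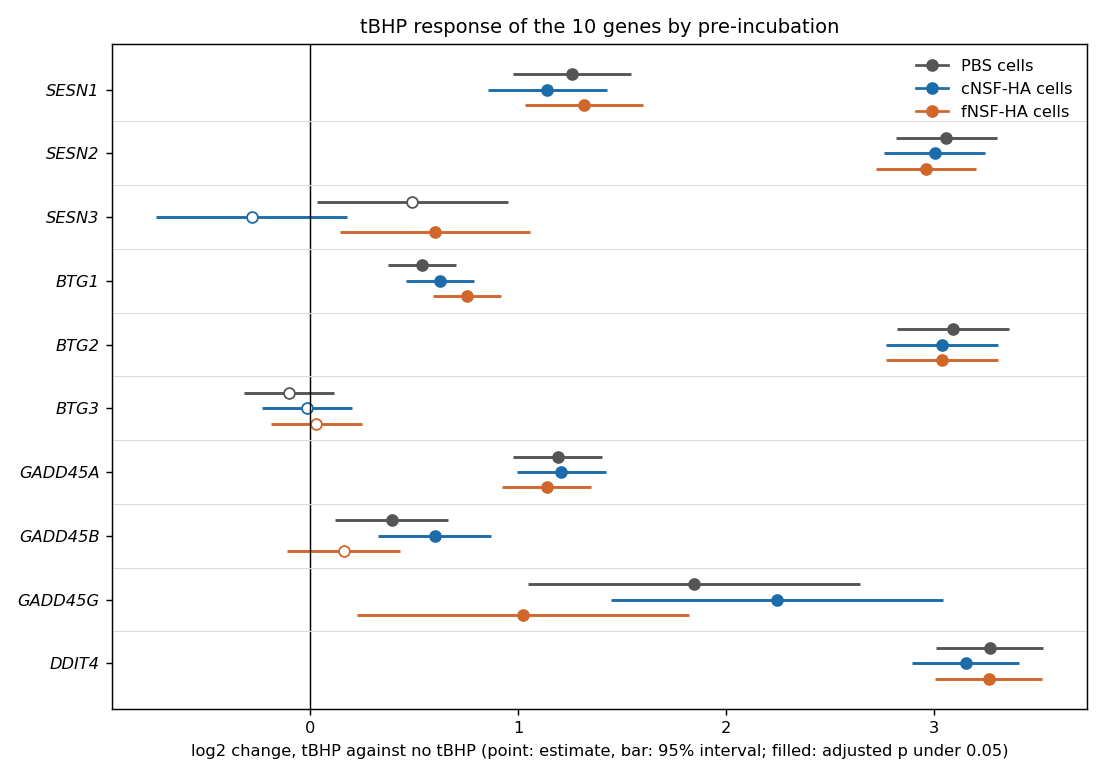
Log2 change of each gene after tBHP (horizontal axis) with its 95% interval, in PBS, cNSF-HA and fNSF-HA cells; filled points passed an adjusted p of 0.05 and open ones did not. SESN2, BTG2 and DDIT4 lie near 3 in all 3 pre-incubations, SESN1 and GADD45A near 1.2, and the intervals of SESN3 and GADD45G are the widest.

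The make-up of each family shifted with these changes. Taken per kb of exon, SESN2 made up 72.9% ± 1.56 (SD, n = 3) of sestrin transcripts in PBS cells and 91.0% ± 1.17 after tBHP, while the share of SESN1 was 22.0% ± 1.44 and then 7.90% ± 0.786, although SESN1 itself rose. The summed sestrin level went from 162 ± 9.98 to 1089 ± 138 normalized counts per kb. BTG2 went from 4.94% ± 0.552 to 28.5% ± 2.36 of BTG1, BTG2 and BTG3 together, and BTG3 from 61.3% ± 2.23 to 38.5% ± 2.68. Among the GADD45 genes, GADD45A and GADD45B were near parity before (49.3% ± 1.08 and 50.4% ± 1.04), whereas after tBHP GADD45A held 62.5% ± 1.92. Shares in HA cells were similar, with SESN2 at 92.3% ± 0.348 and 89.5% ± 3.96 after tBHP in cNSF-HA and fNSF-HA cells. These shares restate the changes above and were not tested.

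**Figure D3:**
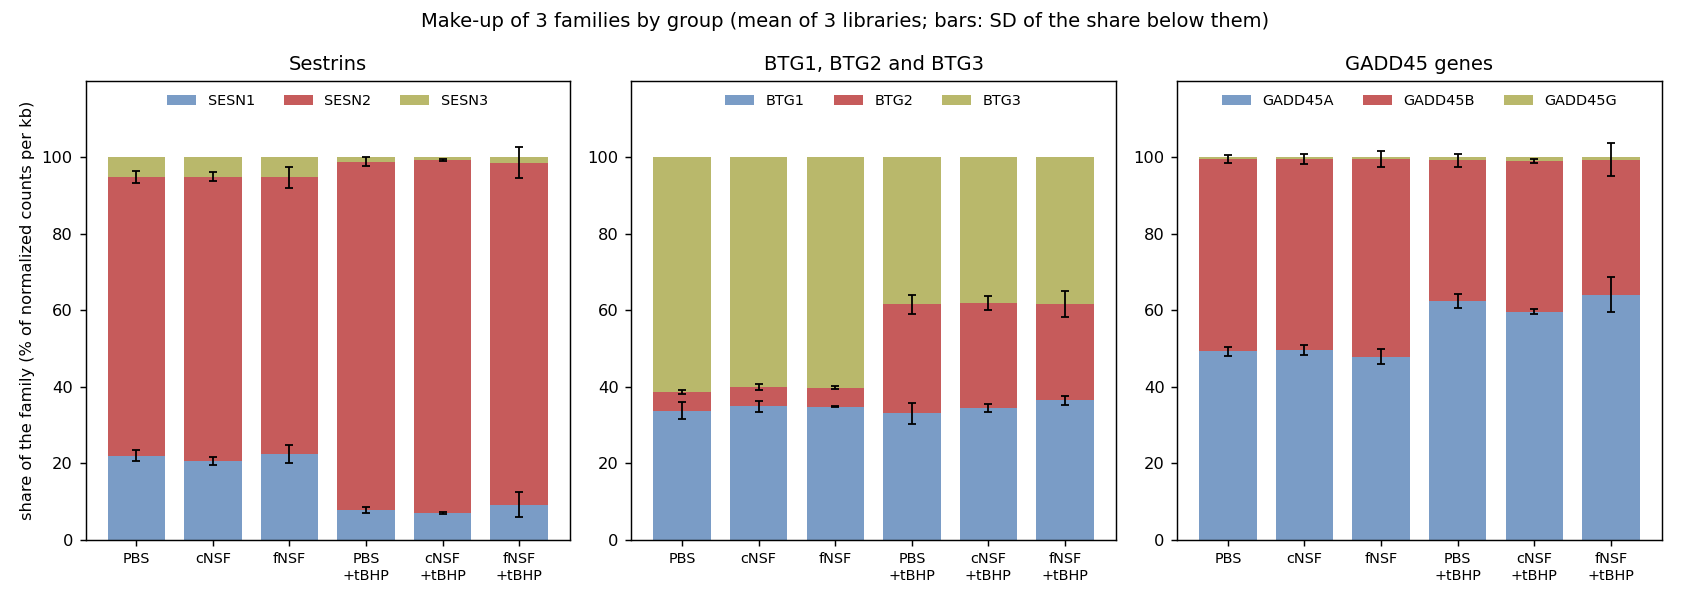
Share of each gene in its family (vertical axis, percent of normalized counts per kb of exon) in the 6 groups; stacked bars are means of 3 libraries and error bars the SD of the share below them. After tBHP, SESN2 takes 89.5% to 92.3% of the sestrins and BTG2 25.3% to 28.5% of its family, against 72.5% to 74.3% and 4.90% to 5.18% before.

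The order of levels per kb changed accordingly. In exposed PBS cells GADD45A (1811 ± 57.8 normalized counts per kb) and DDIT4 (1528 ± 172) led without overlap. GADD45B (1067 ± 80.7) and SESN2 (992 ± 138) followed and overlapped each other, as did BTG3 (419 ± 60.0) and BTG1 (357 ± 16.8). BTG2 (309 ± 33.7), SESN1 (85.3 ± 3.40), GADD45G (22.7 ± 7.85) and SESN3 (11.8 ± 3.48) came next, each apart from its neighbours. The same order was found with both kinds of HA, but there the ranges of GADD45A and DDIT4 overlapped, as did those of DDIT4 and GADD45B, and in fNSF-HA cells those of GADD45G and SESN3 as well. In cNSF-HA cells the ranges of GADD45B and SESN2 did not overlap.

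The study asked whether long and fragmented HA change the state of oxidant-stressed cells differently. For these genes, the comparisons of HA groups after tBHP gave no call in limma. None of the 10 passed in cNSF-HA against PBS cells (0% of all genes, 1183 with an unadjusted p under 0.05), in fNSF-HA against PBS cells (0.139% of all genes, 3102 with an unadjusted p under 0.05) or in cNSF-HA against fNSF-HA cells (0% of all genes, 4412 with an unadjusted p under 0.05). At an unadjusted p of 0.05 the members were 1 (SESN3), 1 (BTG1) and 4 (SESN3, BTG1, GADD45B and GADD45G). By edgeR 0 members passed in each, against 0, 36 and 0 genes in all. DESeq2 called 5, 442 and 923 genes in the same 3 comparisons, among them 1 member, BTG1 in fNSF-HA against PBS cells (adjusted p = 0.0499). These comparisons share libraries in pairs. The 3 tests of a difference between tBHP responses also called 0% of all genes and 0 members in limma (555, 942 and 533 genes with an unadjusted p under 0.05 for cNSF-HA minus PBS, fNSF-HA minus PBS and cNSF-HA minus fNSF-HA, with 1, 0 and 3 members), and 0 members by edgeR and DESeq2.

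SESN3 showed the largest negative differences of the 10. Its exposed cNSF-HA replicates (63.2 to 85.2 normalized counts) lay below all exposed PBS (87.4 to 161) and all exposed fNSF-HA replicates (113 to 195). The log2 difference was -0.92 against fNSF-HA (95% interval -1.38 to -0.47, adjusted p = 0.0981) and -0.76 against PBS (-1.22 to -0.30, adjusted p = 0.490). Without replicate 2 of the exposed fNSF-HA cells the first was -0.67 (adjusted p = 0.572), and with the GC and length trend removed -0.58 (adjusted p = 0.113). The second was -0.62 with that trend removed (adjusted p = 0.125). As a difference of responses, SESN3 gave -0.88 for cNSF-HA minus fNSF-HA (-1.53 to -0.23, adjusted p = 0.710), and -0.63 without replicate 2 of the exposed fNSF-HA cells. Without their replicate 3, the difference between the HA groups was -1.06 and passed the threshold (adjusted p = 0.00296). The share of all genes that passed without that library is not given here, neither for SESN3 nor for the genes below.

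GADD45G and GADD45B leaned the other way. After tBHP, cNSF-HA cells exceeded fNSF-HA cells by a log2 difference of 1.07 for GADD45G (95% interval 0.27 to 1.87, adjusted p = 0.0981) and 0.38 for GADD45B (0.11 to 0.65, adjusted p = 0.0981), with overlapping replicates for GADD45G (32.5 to 50.8 against 9.57 to 34.2) and for GADD45B (2301 to 3073 against 1551 to 2502). Without replicate 2 of the exposed fNSF-HA cells these differences were 0.65 for GADD45G (adjusted p = 0.580) and 0.20 for GADD45B (adjusted p = 0.572). Without replicate 3 they were 1.51 (adjusted p = 0.00502) and 0.54 (adjusted p = 0.00242). Against PBS, fNSF-HA cells differed by -0.65 for GADD45G and -0.19 for GADD45B, by -0.23 and -0.0099 without replicate 2, and by -1.10 (adjusted p = 0.0340) and -0.35 (adjusted p = 0.0276) without replicate 3. For cNSF-HA against PBS the differences were 0.42 (95% interval -0.38 to 1.22) for GADD45G and 0.19 (-0.08 to 0.46) for GADD45B, and without replicate 3 of the exposed cNSF-HA cells 0.23 and 0.07. Without replicate 1 of the exposed PBS cells they were 0.68 and 0.25. As differences of responses, cNSF-HA minus fNSF-HA gave 1.22 (0.09 to 2.35) for GADD45G and 0.44 (0.05 to 0.82) for GADD45B, both with an adjusted p of 0.710. These were 0.79 and 0.26 without replicate 2 of the exposed fNSF-HA cells, and 1.66 and 0.60 without their replicate 3.

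BTG1 differed by -0.18 between the HA groups (-0.34 to -0.02, adjusted p = 0.127), and its fNSF-HA replicates (1884 to 2242) were all above those of PBS cells (1674 to 1828), a difference of 0.25 (0.08 to 0.41, adjusted p = 0.125). Without replicate 2 of the exposed fNSF-HA cells these were -0.12 and 0.18, and without replicate 3 they passed the threshold at -0.24 (adjusted p = 0.0225) and 0.31 (adjusted p = 0.0101). Removing the GC and length trend left 0.57 for GADD45G, 0.06 for GADD45B and 0.07 for BTG1 between the HA groups, and 0.04 for BTG1 between fNSF-HA and PBS cells. With that trend removed, GADD45B differed by 0.02 between fNSF-HA and PBS cells. SESN2, BTG2, BTG3, GADD45A and DDIT4 differed by at most 0.12 in any of the 3 comparisons, and their 95% intervals reached no further than 0.38 in either direction. Without replicate 2 of the exposed fNSF-HA cells, the differences of these 5 genes in the 2 comparisons with fNSF-HA ran from -0.07 to 0.09. Without their replicate 3 they were wider, with DDIT4 at -0.25 and SESN2 at -0.23 for fNSF-HA against PBS, and DDIT4 at 0.24, GADD45A at 0.22 and SESN2 at 0.21 between the HA groups, none past the threshold. Removing the GC and length trend turned the differences between the HA groups to -0.19 for SESN2 and -0.16 for DDIT4. Those for fNSF-HA against PBS became 0.13 for SESN2 and 0.05 for DDIT4. Array weights weight each library by its closeness to the fitted values of its own group. With them, GADD45A passed the threshold at -0.26 for fNSF-HA against PBS (adjusted p = 0.00294) and at 0.17 between the HA groups (adjusted p = 0.00858). In that fit, replicate 1 of the exposed fNSF-HA cells had a weight of 6.79, against 0.102 and 0.236 for replicates 2 and 3. The share of all genes that passed with these weights is not given here. SESN1 differed by -0.27 between the HA groups (-0.56 to 0.01). That value was -0.12 without replicate 2 of the exposed fNSF-HA cells (adjusted p = 0.740) and -0.45 without their replicate 3 (adjusted p = 0.00871). Its exposed cNSF-HA replicates (352 to 412) all lay below the PBS ones (417 to 449.7), by -0.19 (-0.48 to 0.09). Against PBS, SESN1 in fNSF-HA cells differed by 0.08, by -0.08 without replicate 2 and by 0.25 without replicate 3.

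**Figure D4:**
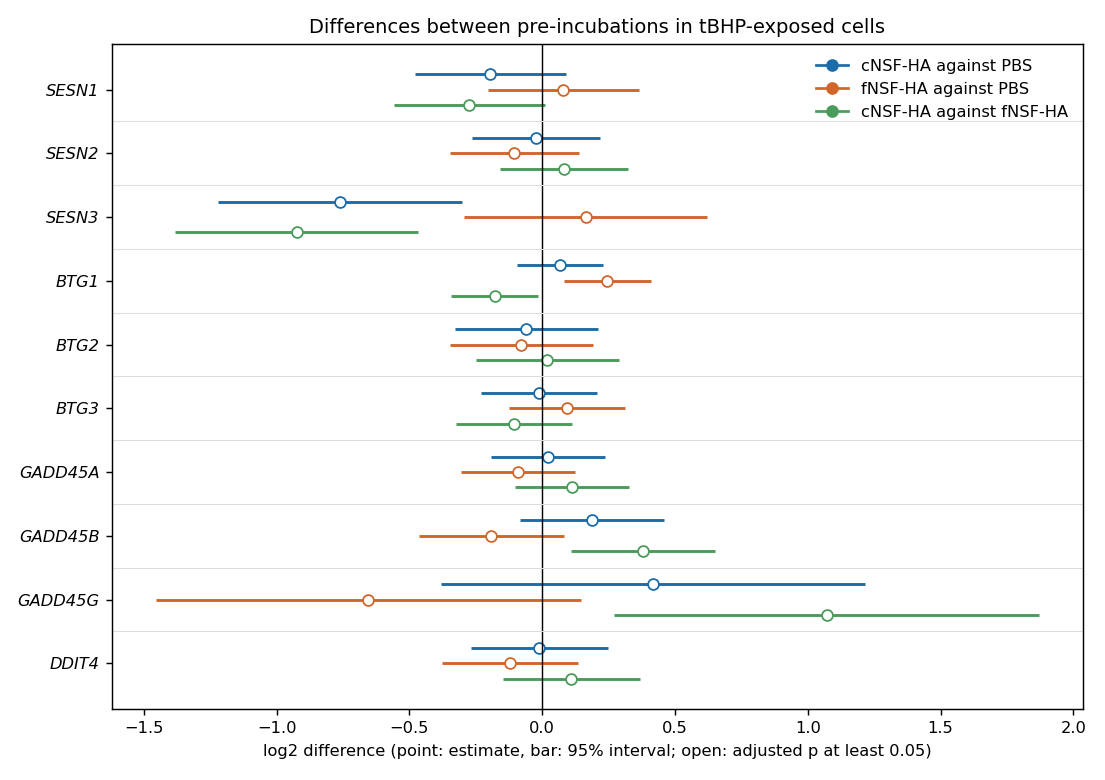
Log2 differences between pre-incubations in tBHP-exposed cells (horizontal axis, with 95% intervals) for the 10 genes; open points mark an adjusted p of at least 0.05, and all are open. SESN3 has the most negative estimates (-0.92 and -0.76) and GADD45G the most positive (1.07), while SESN2, BTG2, BTG3, GADD45A and DDIT4 lie within 0.12 of 0 in this fit of all 18 libraries.

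These differences moved with transcript GC content from library to library. In replicate 2 of the exposed fNSF-HA cells, the deviation from the mean of the 9 exposed libraries was 0.88 for SESN3 (37.1% GC), 0.27 for BTG1 (38.7%) and 0.44 for SESN1 (43.4%). In the same library it was -0.55 for GADD45B (59.6%) and -1.42 for GADD45G (63.9%), and also -0.38 for DDIT4 (58.1%) and -0.35 for SESN2 (59.5%). Low-GC members were thus high and high-GC members low in it. Over the 10 genes, Pearson's r between GC content and deviation was -0.92 in that library, -0.73 in replicate 1 and 0.71 in replicate 3 of the same group. It was 0.89, -0.75 and -0.59 in exposed PBS replicates 1, 2 and 3, and 0.72 to 0.86 in the exposed cNSF-HA replicates. The 10 genes are not independent points, since they share each library. The part of GC content in the HA differences was not tested, beyond the values given above with its trend removed.

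**Figure D5:**
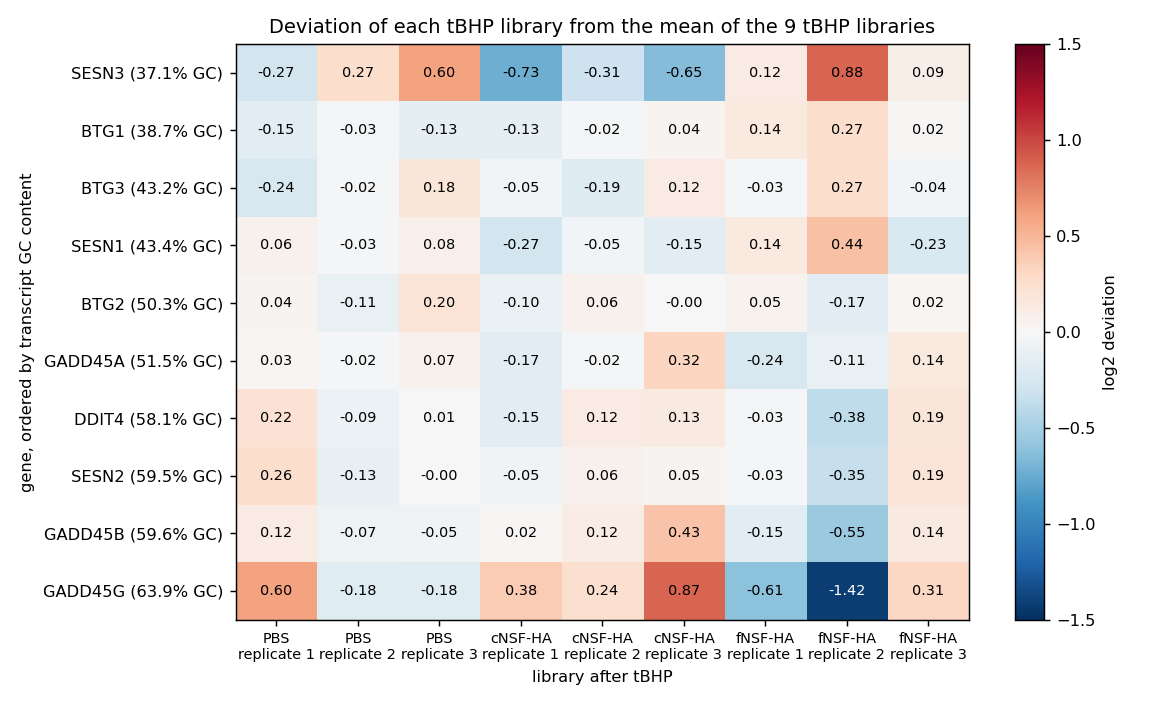
Log2 deviation of each tBHP-exposed library (columns) from the mean of the 9 exposed libraries, for the 10 genes ordered by the GC content of the transcript (rows); red is above and blue below the mean. Replicate 2 of the fNSF-HA cells runs from 0.88 for SESN3 at the low-GC end to -1.42 for GADD45G at the high-GC end.

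Genes that work with these proteins, from lists chosen with earlier results known, were also counted in PBS cells after tBHP. Of all tested genes, the share that was higher was 24.2% with PBS, 24% with cNSF-HA and 19.2% with fNSF-HA. The share that was lower was 26.9%, 26.8% and 22.7%. Of the other BTG/TOB and DDIT4 relatives, 3 of 4 were tested. The antiproliferative TOB1 (log2 change 1.11) and TOB2 (0.59) were higher, and DDIT4L, a paralog of DDIT4, was lower (-0.28, adjusted p = 0.0216). TOB1 and TOB2 were also higher with either HA, but DDIT4L did not pass there (-0.0018 with cNSF-HA and 0.019 with fNSF-HA). Among 14 genes of the CCR4-NOT complex, which BTG proteins recruit, and of related poly(A) factors, 4 (28.6%) were higher and 2 (14.3%) lower. The largest rises were those of PAN2 (0.47) and CNOT3 (0.29), and the largest falls those of the deadenylase CNOT7 (-0.64) and of CNOT10 (-0.37). Their median change was -0.021, against 0.0043 over all genes. With either HA, 2 (14.3%) were higher and 2 lower.

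Of 15 GADD45 partners and their relatives in the cell cycle, repair and stress kinases, 5 (33.3%) were higher and 7 (46.7%) lower (median -0.20). CDKN1A, the p21 inhibitor of cyclin-dependent kinases, was higher by 3.06 and the repair endonuclease ERCC5 by 0.58, while the mitotic cyclin CCNB1 was lower (-1.16), as was CDK1 (-0.87). In each HA pre-incubation 4 (26.7%) were higher and 7 lower. Among 27 tested of 29 genes of GATOR, mTORC1 and its regulators, 9 (33.3%) were higher and 5 (18.5%) lower (median 0.25). The autophagy receptor SQSTM1 (2.15) and the autophagy kinase ULK1 (1.84) rose most, and PRKAA2, a catalytic subunit of AMPK (-2.00), and MIOS, a GATOR component (-1.11), fell most. The counts were 9 and 5 in cNSF-HA, and 10 and 4 in fNSF-HA cells.

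Of 13 transcription factors known to act on these genes, 9 (69.2%) were higher and 2 (15.4%) lower in PBS cells (median 0.64), led by DDIT3 (2.92, also called CHOP) and CEBPB (1.94). NFKB1 (-0.55) and HIF1A (-0.39) were lower. In cNSF-HA cells 9 (69.2%) were higher and 3 (23.1%) lower, and in fNSF-HA cells 8 (61.5%) and 1 (7.69%). These are transcript levels of the factors, not their activity.

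The genes whose log2 levels followed each member most closely over the 18 libraries were named by Pearson's r, as a description. Since the libraries fall into exposed and unexposed ones, a high r mainly restates a shared difference between them. For SESN2 they were CDKN1A (0.999), TRIB3 and HMOX1, for DDIT4 TRIB3 (0.999), HMOX1 and SESN2, and for BTG2 GABARAPL1 (0.997), DDIT4 and HMOX1. GADD45A was closest to FTH1 (0.993), EIF1 and AHSA1, SESN1 to LGALS8 (0.987), UGDH and STOM, and BTG1 to TARS (0.983), GCLM and BLOC1S2. SESN3 was closest to FAM217B (0.906), TLK1 and JMY, and BTG3 to LLPH (0.888), ATP5F1 and MBIP. GADD45B was closest to DHPS (0.985), MYL6B and MYDGF, and GADD45G to PRPF6 (0.980), GTF2F1 and NAB2.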

How the data were processed

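Poly(A) RNA of 18 IMR90 cultures was sequenced by the authors as single-end reads of 100 nt (TruSeq V2 libraries, which do not mark strand). According to the submitters' processing notes, Trimmomatic 0.32, STAR 2.5.2b, featureCounts of Subread 1.5.0-p3, DESeq2 and genome build GRCh38.p7 were used. The gene annotation and strand setting are not given in the sources used here. The deposited values are a signal, namely counts that the authors divided by DESeq2 size factors, with gene symbols only. Dividing by each library's step, the deposited value of 1 read, gave whole reads for 100% of values, within 0.01 of a read. The table also holds 3 columns of the authors' own comparison (p, q and ranking), which were not used.

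Genes with a mean of at least 10 were tested on log2(value + 1) with limma 3.58.1 (R 4.3.3), 1 coefficient per group, a mean-variance trend and Benjamini-Hochberg adjustment over 13686 genes per comparison; the tests were two-sided, at a threshold of 0.05. The script was tested on simulated data. Alternatives were edgeR 4.0.16 and DESeq2 1.42.0 on the recovered reads, other pseudocounts, filters, scalings and weights, a replicate block, removal of each library's trend with transcript GC and length (GENCODE release 29), and leaving out each library. Members and gene lists were chosen with earlier results of these data known. All 10 members are named, with the 2 largest rises and falls of each gene list in PBS cells and the 3 genes (mean of at least 100) closest to each member. Library totals set the counting precision; replicates are biological per the study.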

Additional observations from a re-analysis of the deposited data

How the results depend on the processing

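Of 3588 values of the 10 genes recomputed under 30 alternatives, 3384 kept their side of the threshold, 29 newly passed it, 16 no longer did, and 159 changed sign without ever passing it; no called value reversed. Between 7 and 9 of the 10 genes passed for tBHP in PBS cells, 7 or 8 in cNSF-HA cells and 6 to 9 in fNSF-HA cells. A minimum mean of 50 left GADD45G untested. Calls of the HA comparisons appeared under a few settings. With array weights, which gave replicate 1 of the exposed fNSF-HA cells a weight of 6.79 and replicate 2 one of 0.102, 1 member (SESN3) passed for cNSF-HA against PBS after tBHP, 2 (BTG1 and GADD45A) for fNSF-HA against PBS, 6 (SESN1, SESN3, BTG1, GADD45A, GADD45B and GADD45G) for cNSF-HA against fNSF-HA and 1 (GADD45B) for the difference between the responses of the HA groups. DESeq2 called 1 (BTG1) for fNSF-HA against PBS. Leaving out 1 library gave 0 to 3 for fNSF-HA against PBS and 0 to 5 for cNSF-HA against fNSF-HA, the highest counts being those without replicate 3 of the exposed fNSF-HA cells (BTG1, GADD45B and GADD45G, and SESN1, SESN3, BTG1, GADD45B and GADD45G). Without it SESN3 differed by -1.06 (adjusted p = 0.00296) and GADD45G by 1.51 (adjusted p = 0.00502) between the HA groups. The cause was not tested. For the HA comparisons, the share of all genes called without 1 library or with array weights is not given here. These member counts therefore cannot be read as particular to the 10 genes. Over all genes, limma, edgeR on the recovered reads and DESeq2 called 6995, 7281 and 7181 for tBHP in PBS cells, 19, 36 and 442 for fNSF-HA against PBS after tBHP, and 0, 0 and 923 for cNSF-HA against fNSF-HA.

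Replicate numbers are shared between groups, but only 7 of 45 pairs of same-numbered libraries deviated together with r over 0.1 (-0.12 to 0.33), although 13 of 18 libraries correlated best with their own number. With a replicate block, 9, 8 and 8 members passed for tBHP in PBS, cNSF-HA and fNSF-HA cells, the addition being SESN3 in PBS cells (adjusted p = 0.0302), and 0 in each HA comparison. GADD45G rests on 5 to 12 reads per unexposed library, so its log2 changes depend most on the scale used: 1.46 in PBS cells with a pseudocount of 5 and 2.07 by edgeR, against 1.85.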
